A study of Mus musculus with 16 samples.

Results

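The genes described here encode proteins that carry a cell through mitosis: Prc1, Smc2, Smc4, Ccnb1, Ccna2, Cdk1, Plk1, Bub1, Top2a and Lmnb1. They were measured on Affymetrix mouse U74Av2 arrays, where a gene is read by 1 or more probe sets, each a set of short oligonucleotides. The members were the probe sets that the annotation of the array assigns to 1 of these 10 symbols and to no other gene, which gave 13 of 12488 probe sets and 9 of the 10 genes. Ccnb1 has no probe set under this rule and was not analysed here. The 13 are 1 probe set each for Prc1, Smc2, Smc4, Ccna2, Cdk1, Top2a and Lmnb1 and 3 each for Plk1 and Bub1.

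The 16 arrays fall into 6 groups, 4 of embryonic stem (ES) cells with 3 arrays each and 2 of liver with 2 arrays each. The Cdk4 +/- ES line carries a mutation in 1 copy of Cdk4, the kinase of D-type cyclins, and E14 is the +/+ line that the labels name as its control; both grew without feeder cells. The Abca1 +/- ES line carries a mutation in 1 copy of Abca1, a cholesterol exporter, and ESVJ is its +/+ parental line; both grew on irradiated mouse embryonic fibroblasts that were removed before the RNA was taken. The livers are labelled Abca1 +/- or +/+ and come from mice of mixed 129/SvJ and C57BL6/J background, whose age is not given. Each mutant is a single line, so a difference from its control is a difference between 2 lines. The labels do not say whether the 3 arrays of a line came from separate cultures, so every p-value below measures the spread between arrays, which may be technical. Signals are rescaled MAS5 intensities with an array mean, after trimming, of 500, and all log2 differences were computed on the signal plus 32. "Passed" means a limma adjusted p below 0.05 over all probe sets of a comparison.

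Entry into mitosis is driven by Cdk1 bound to cyclin A2 (Ccna2) and cyclin B1 (Ccnb1), and Plk1 is a kinase that acts with them from centrosome maturation to cytokinesis. Chromosomes are compacted by condensin, whose core is the Smc2 and Smc4 pair, and untangled by topoisomerase II alpha (Top2a), while the kinase Bub1 works at kinetochores in the spindle checkpoint. Prc1 bundles the antiparallel microtubules of the spindle midzone in anaphase, and lamin B1 (Lmnb1) is a filament protein of the nuclear lamina, which is taken apart and rebuilt at each division. Transcripts of most of these genes peak in G2 and mitosis in cycling mammalian cells. ES cells divide fast, with a short G1 phase, whereas most cells of an adult liver are out of the cycle. In bulk RNA, fewer cells in mitosis and less RNA per mitotic cell cannot be told apart.

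Promoters of many genes with a peak in G2 and mitosis hold a cell cycle genes homology region, TTTGAA or TTTAAA, and CCAAT boxes, and the stretches of the 5 genes that passed in a comparison of ES lines are printed to show where these letters lie. RefSeq promoter windows (GRCm38.p6, 250 bases before to 50 after a start) were found for 7 of the 10 genes, in 8 windows, and not for Smc4, Ccna2 and Lmnb1. Each line gives the 200 bases before the start, 5′ to 3′ in the direction of the gene, with the capitals marking TTTGAA or its reverse complement TTCAAA and CCAAT or its reverse complement ATTGG. For Prc1 the later of its 2 annotated starts was used.
Prc1, chr7:80294276-80294475, plus strand: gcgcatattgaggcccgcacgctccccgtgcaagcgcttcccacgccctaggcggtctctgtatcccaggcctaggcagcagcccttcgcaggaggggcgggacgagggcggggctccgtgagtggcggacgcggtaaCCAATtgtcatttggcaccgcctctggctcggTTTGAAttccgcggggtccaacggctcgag
Smc2, chr4:52439021-52439220, plus strand: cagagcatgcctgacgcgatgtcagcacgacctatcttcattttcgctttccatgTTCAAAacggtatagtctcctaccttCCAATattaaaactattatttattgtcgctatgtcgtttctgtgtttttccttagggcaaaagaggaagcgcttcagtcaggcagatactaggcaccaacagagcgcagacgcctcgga
Top2a, chr11:99024190-99024389, minus strand: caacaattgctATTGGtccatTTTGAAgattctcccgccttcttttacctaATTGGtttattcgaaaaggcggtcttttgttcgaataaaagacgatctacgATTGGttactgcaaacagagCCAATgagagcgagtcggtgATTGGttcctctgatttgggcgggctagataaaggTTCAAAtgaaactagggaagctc
Cdk1, chr10:69352913-69353112, minus strand: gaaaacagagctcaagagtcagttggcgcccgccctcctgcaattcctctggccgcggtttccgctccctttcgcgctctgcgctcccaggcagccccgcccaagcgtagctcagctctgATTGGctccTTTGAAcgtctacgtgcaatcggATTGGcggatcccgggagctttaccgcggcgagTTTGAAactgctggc
Bub1, chr2:127831860-127832059, minus strand: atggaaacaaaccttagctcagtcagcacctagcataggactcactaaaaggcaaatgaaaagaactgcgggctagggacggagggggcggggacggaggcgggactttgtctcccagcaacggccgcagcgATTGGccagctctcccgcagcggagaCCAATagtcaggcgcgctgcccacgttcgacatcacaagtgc
In the printed stretches no match of 1 motif overlaps a match of another. Over windows of 300 bases and both strands, TTTGAA was found for 5 of the 7 genes, TTTAAA for 2 (Plk1 and Ccnb1) and CCAAT for 7. Among all 32851 windows of that length, 17.9% hold TTTGAA, 13.2% TTTAAA and 37.4% CCAAT. A match is a string of letters and was not tested as a binding site. Bub1 had neither TTTGAA nor TTTAAA in its window.

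The arrays were checked before the comparisons. Marker genes matched the labelled tissues: the summed signal of 10 pluripotency genes was 33920 to 64410 in ES arrays and 571 to 832 in livers, while that of 9 hepatocyte genes was 283 to 544 in ES arrays and 206800 to 271600 in livers. The summed signal of 10 fibroblast genes, which feeders would bring, was 2176 to 2570 in the 2 feeder-grown groups and 2489 to 3239 in the 2 feeder-free groups. The sum hides opposite moves: Col1a1 averaged 388 in ESVJ and 937 in E14 cells, while Col1a2 averaged 1334 and 867. Of the 4 fibroblast genes tested in ES cells, 1 passed as higher and 2 as lower in E14 than in ESVJ cells. The share of feeder RNA was not tested. Cdk4 was at 64.5% of E14 in Cdk4 +/- cells by 1 probe set (adjusted p = 0.00436, limma) and at 61.5% by the other (adjusted p = 0.104, limma). Abca1 was at 83.3% of ESVJ in Abca1 +/- ES cells and did not pass, and in livers labelled Abca1 +/- 1 probe set was at 189% and the other at 50.1% of +/+ livers, neither of which passed. Replicate 2 of Cdk4 +/- stood apart from the other Cdk4 +/- arrays, with a mean correlation of 0.970 to its own group, against 0.978 and 0.980, and of 0.908 to the ESVJ arrays, against 0.874 and 0.886. Among the ES arrays it had a BioB hybridisation control above 1500, as had replicate 1 of Abca1 +/- and replicate 3 of ESVJ. In replicate 1 of the livers labelled Abca1 +/-, the ratio of the 5′ to the 3′ probe set was 0.121 for actin and 0.244 for Gapdh, against 0.467 to 0.563 and 0.888 to 1.23 in the other 3 livers.

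Cdk4 +/- ES cells had more transcript of the midzone gene Prc1 and of the condensin gene Smc2 than E14 cells, and these 2 of the 12 tested probe sets passed. Over all genes, 361 of 7349 probe sets (4.91%) passed in this comparison, 2.59% as higher and 2.33% as lower. The 12 probe sets had a median log2 difference of 0.37, beside 0.02 for all probe sets, and 6 of them were higher with no overlap between the groups, beside 13% of all probe sets; 6 had an unadjusted p below 0.05, beside 20.8%. The 6 without overlap were Prc1, Smc2, Ccna2, Cdk1, Top2a and the leading probe set of Bub1. The 12 also include Bub1 162264_s_at, which averaged only 14.2 in E14 and 44.3 in Cdk4 +/- arrays. The members were chosen with earlier results of these data known, so the median and these shares are a description. Bub1 97095_at was below the signal filter of 100 and was not tested. Of the 10 pluripotency genes 2 passed as higher in Cdk4 +/- cells. The summed signal of the 10 was 40650 to 46740, against 33920 to 39740 in E14 cells. Not all of them rose: Pou5f1 averaged 7033 against 7084 and Utf1 2909 against 3676, while the others averaged higher. The part of these values in those of the members was not tested.

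Prc1 gave 2868, 2472 and 2445 in the Cdk4 +/- arrays, against 1518, 1445 and 1298 in the E14 arrays. Every Cdk4 +/- array lay above every E14 array, and the 3 Cdk4 +/- arrays were also above all other arrays of the study. The log2 difference was 0.85 (SE 0.13, 1.81-fold, adjusted p = 0.00231, limma), and it passed in each of 17 alternative analyses, with adjusted p between 0.00155 and 0.0203. The gene lies at chr7:80294445-80316259 in GRCm38.p6.

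Smc2 gave 3007, 1986 and 1980 in the Cdk4 +/- arrays, against 1338, 1392 and 1249 in the E14 arrays. The groups did not overlap, and replicate 1 of Cdk4 +/- was far above the other Cdk4 +/- arrays. The log2 difference was 0.77 (SE 0.16, 1.70-fold, adjusted p = 0.0184, limma). The call was lost without replicate 1 of E14 (adjusted p = 0.0579), without replicate 2 of E14 (0.0532), without replicate 1 of Cdk4 +/- (log2 difference 0.57, adjusted p = 0.0795) and with all 16 arrays in one fit (0.111). Smc4, the partner of Smc2 in condensin, gave 3624, 2542 and 3507 in Cdk4 +/- arrays, against 2563, 2328 and 2506 in E14 arrays. Replicate 2 of Cdk4 +/- fell among the E14 arrays and the other 2 lay above them. Its log2 difference of 0.37 (SE 0.14) did not pass (adjusted p = 0.142, limma), and without that replicate it was 0.53 and passed (adjusted p = 0.0294).

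Top2a, the decatenating topoisomerase, gave 1710, 1758 and 1569 in Cdk4 +/- arrays, against 1324, 1451 and 1087 in E14 arrays. The groups did not overlap, and the log2 difference of 0.38 (SE 0.13) did not pass (adjusted p = 0.104, limma). The cyclin gene Ccna2 gave 2377, 2425 and 2362 in Cdk4 +/- arrays, against 2000, 1801 and 1736 in E14 arrays. The 3 Cdk4 +/- arrays were close together and above every E14 array. The log2 difference of 0.37 (SE 0.11) did not pass (adjusted p = 0.0721, limma), and it passed with quantile normalization (0.46, adjusted p = 0.0412).

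The mitotic kinase gene Cdk1 gave 3069, 3760 and 3276 in Cdk4 +/- arrays, against 2845, 2704 and 2723 in E14 arrays, a log2 difference of 0.28 (SE 0.14, adjusted p = 0.25, limma). The checkpoint kinase gene Bub1 gave 1051, 918 and 1008 in Cdk4 +/- arrays, against 792, 789 and 800 in E14 arrays, a log2 difference of 0.31 (SE 0.12, adjusted p = 0.144, limma). Neither gene overlapped between the groups and neither passed. Lmnb1 gave 1217, 757 and 1181 in Cdk4 +/- arrays, against 936, 792 and 624 in E14 arrays. Replicate 2 of Cdk4 +/- fell among the E14 arrays, and the log2 difference of 0.40 (SE 0.31) did not pass (adjusted p = 0.509, limma).

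Plk1 was the one member whose tested probe sets leaned the other way. Its probe set 101350_g_at gave 1627, 2372 and 2317 in Cdk4 +/- arrays, against 2639, 2269 and 2452 in E14 arrays. The groups overlapped, and the 3 probe sets had log2 differences of -0.23, -0.26 and -0.24 with adjusted p between 0.449 and 0.546 (limma). The 95% intervals of the 3 differences reached from -0.68 to 0.20, so neither a fall nor a small rise was resolved.

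**Figure D1:**
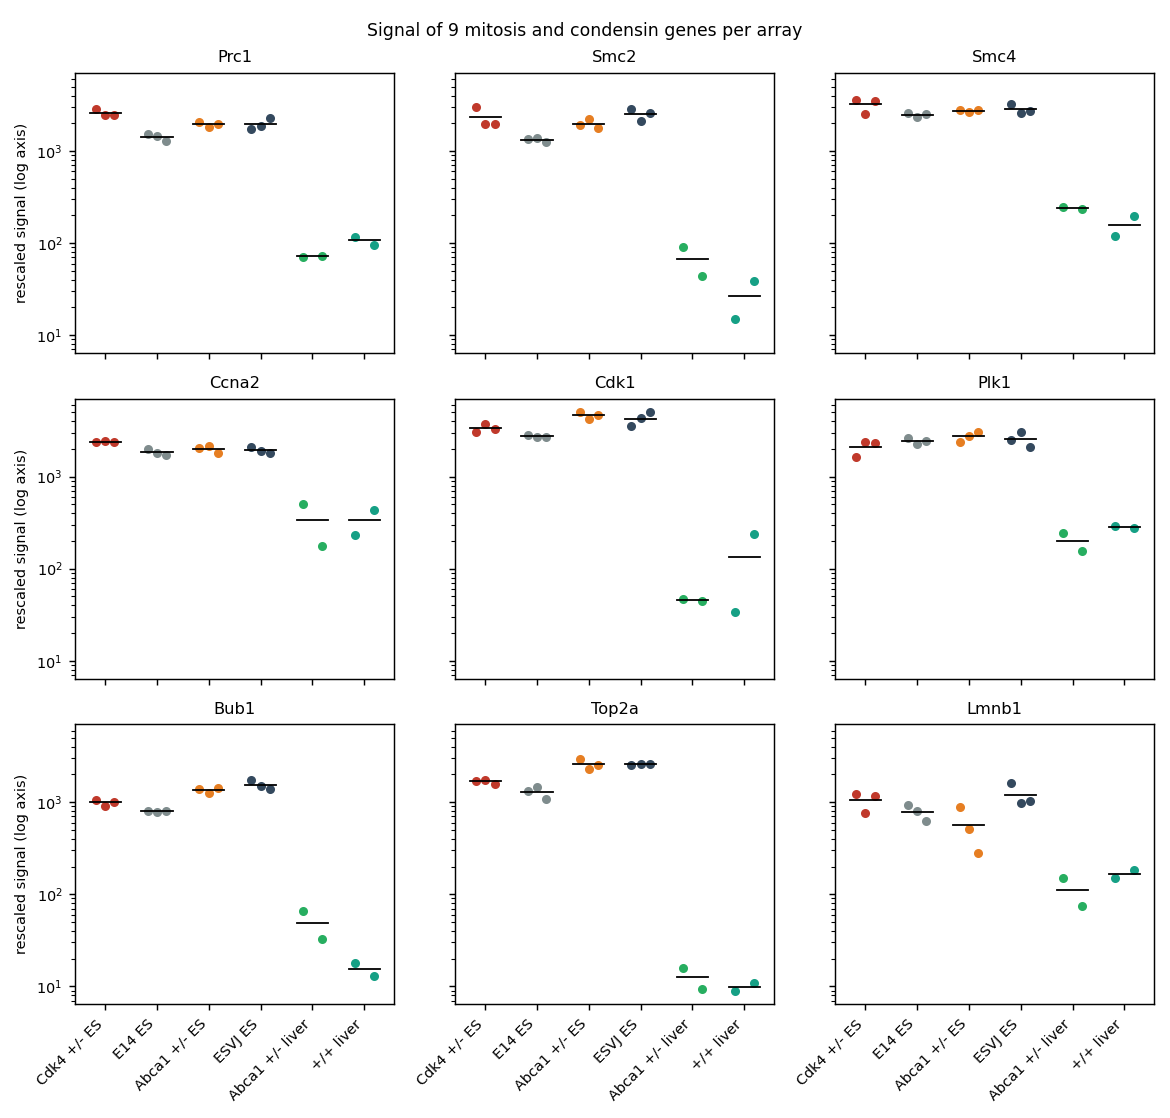
Rescaled signal of the leading probe set of each of the 9 measured genes (log axis) on each of the 16 arrays, by group; points are arrays and bars are group means. Prc1 lies between 2445 and 2868 in Cdk4 +/- cells, above all other arrays, and each gene is lower in the 4 livers than in every ES array.

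None of the 12 tested probe sets passed between Abca1 +/- and ESVJ cells. In this comparison 2 of 7349 probe sets passed (0.0272%), and 241 (3.28%) had an unadjusted p below 0.05, of which 1 is a member. The median log2 difference of the members was 0.00, as was that of all probe sets. The 3 probe sets of Plk1 and those of Prc1, Smc4, Ccna2, Cdk1 and Top2a had log2 differences between -0.04 and 0.13, and those of Bub1 had -0.18 and -0.31.

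The member with the unadjusted p below 0.05 was Lmnb1, which gave 894, 509 and 281 in Abca1 +/- arrays, against 1598, 972 and 1040 in ESVJ arrays. Every Abca1 +/- array was below every ESVJ array, as held for this 1 member probe set and for 4% of all probe sets, and each group had a wide spread, with replicate 1 of Abca1 +/- and replicate 1 of ESVJ high in their groups. The log2 difference was -1.16 (SE 0.31, 95% interval -1.83 to -0.50, unadjusted p = 0.00204), and it did not pass (adjusted p = 1 after rounding, limma); the lowest adjusted p over 17 alternatives was 0.0967. Smc2, which lies on chromosome 4 as Abca1 does (chr4:52439221-52488365), gave 1920, 2228 and 1781 in Abca1 +/- arrays, against 2869, 2101 and 2594 in ESVJ arrays. The groups overlapped, and its log2 difference of -0.34 (SE 0.16) did not pass.

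Whether the Cdk4 and the Abca1 mutation lines differ from their controls in unlike ways was tested as the difference of the 2 log2 differences. It passed for 46 of 7349 probe sets (0.626%), among them 2 of the 12 member probe sets. For Prc1 it was 0.85 (SE 0.18, adjusted p = 0.0464, limma), made of 0.85 in Cdk4 +/- cells and 0.00 in Abca1 +/- cells. For Smc2 it was 1.11 (SE 0.23, adjusted p = 0.0464, limma), made of 0.77 and -0.34. Both lie close to the threshold: Prc1 passed in 5 of 22 alternatives and Smc2 in 6, with adjusted p up to 0.226 and 0.255. For Lmnb1 the difference was 1.56 (SE 0.44, adjusted p = 0.118, limma), and it missed the threshold in 20 of 22 alternatives, passing without replicate 1 of Abca1 +/- (1.95, adjusted p = 0.0378) and without the ES arrays of high BioB (2.25, adjusted p = 0.0304).

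Between the 2 +/+ lines, E14 had less transcript of 5 of the 9 members than ESVJ. Top2a, Bub1, Smc2, Cdk1 and Prc1 passed as lower, by 6 probe sets in all, and no member passed as higher. One of the 6, Bub1 162264_s_at, met the filter on low signal only through the feeder-grown lines. In this comparison 3130 of 7349 probe sets passed (42.6%), 22.8% as lower and 19.8% as higher. The members' median log2 difference was -0.51, beside -0.09 for all probe sets, and 8 of the 12 were lower with no overlap between the lines, beside 28.9% of all probe sets. That median and the 8 include Bub1 162264_s_at, and the 8 stand for 7 genes. Here too the members were chosen with earlier results of these data known. The line, the use of feeders and the RNA isolation, which added Trizol for the feeder-grown cells, all change together here and cannot be told apart. The same E14 arrays serve as controls of the Cdk4 +/- line, so a low value in E14 enters both comparisons with opposite signs.

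Top2a gave 1324, 1451 and 1087 in E14 arrays, against 2547, 2610 and 2592 in ESVJ arrays. No E14 array came near the closely grouped ESVJ arrays, and the E14 level was 50.1% of ESVJ (log2 difference -0.997, SE 0.13, adjusted p = 2.20e-05, limma). Bub1 gave 792, 789 and 800 in E14 arrays, against 1720, 1512 and 1386 in ESVJ arrays. The E14 level was 52.8% of ESVJ (log2 difference -0.92, SE 0.12, adjusted p = 1.72e-05, limma), again with no overlap. Smc2 gave 1338, 1392 and 1249 in E14 arrays, against 2869, 2101 and 2594 in ESVJ arrays. The E14 level was 53.6% of ESVJ (log2 difference -0.90, SE 0.16, adjusted p = 4.88e-04, limma). These 3 genes passed in each of 17 alternatives.

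Cdk1 gave 2845, 2704 and 2723 in E14 arrays, against 3501, 4317 and 5010 in ESVJ arrays. The groups did not overlap, and the log2 difference was -0.61 (SE 0.14, adjusted p = 0.00212, limma); the call was lost with all 16 arrays in one fit (adjusted p = 0.161). Prc1 gave 1518, 1445 and 1298 in E14 arrays, against 1732, 1861 and 2275 in ESVJ arrays. Its log2 difference of -0.45 (SE 0.13, adjusted p = 0.0104, limma) was lost without replicate 3 of ESVJ (-0.33, adjusted p = 0.055). Both genes had an ESVJ array not far above the highest E14 array.

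Smc4, condensin's other core subunit, gave 2563, 2328 and 2506 in E14 arrays, against 3217, 2570 and 2707 in ESVJ arrays. The groups did not overlap, yet the lowest ESVJ array was just above the highest E14 array, and the log2 difference of -0.19 (SE 0.14) did not pass (adjusted p = 0.275, limma). Ccna2 gave 2000, 1801 and 1736 in E14 arrays, against 2092, 1883 and 1794 in ESVJ arrays. The groups overlapped, with a log2 difference of -0.06 and a 95% interval of -0.30 to 0.18. Lmnb1 gave 936, 792 and 624 in E14 arrays, against 1598, 972 and 1040 in ESVJ arrays, and its log2 difference of -0.58 (SE 0.31) did not pass (adjusted p = 0.147, limma), while it passed in a fit of the 2 lines alone (adjusted p = 0.0407). The tests do not compare 1 member with another, so an unequal response of Smc2 and Smc4 was not tested.

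Set side by side, Cdk4 +/- cells lay between the +/+ lines for some members and above both for others. Bub1 averaged 992 in Cdk4 +/- cells, against 794 in E14 and 1539 in ESVJ cells, and Top2a averaged 1679, against 1287 and 2583. Neither gene's Cdk4 +/- arrays overlapped those of E14 or ESVJ. Ccna2 averaged 2388 in Cdk4 +/- cells, against 1846 in E14 and 1923 in ESVJ cells, and Prc1 averaged 2595, against 1420 and 1956, with no overlap. Smc2 averaged 2325 in Cdk4 +/- cells and 2521 in ESVJ cells, whose arrays overlapped.

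**Figure D2:**
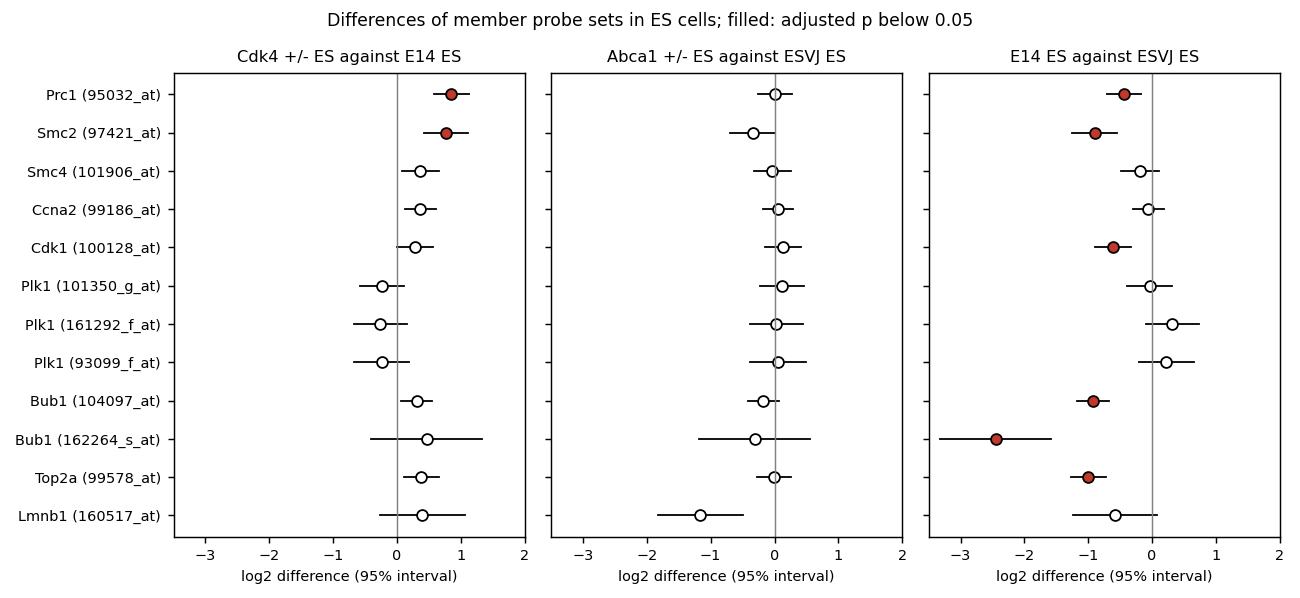
Log2 difference of the 12 tested member probe sets in 3 comparisons of ES cells, with 95% intervals; filled points have an adjusted p below 0.05. Prc1 and Smc2 are filled in Cdk4 +/- against E14, none is filled in Abca1 +/- against ESVJ, and 6 are filled to the left of 0 in E14 against ESVJ.

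The genes with 3 probe sets show how far a member's reading depends on the probes. For Plk1, 101350_g_at, 161292_f_at and 93099_f_at had log2 differences of -0.04, 0.32 and 0.22 between E14 and ESVJ cells, none of which passed. The spread among E14 arrays differed between them, with 2639, 2269 and 2452 for 101350_g_at, 2254, 1700 and 1220 for 93099_f_at and 1926, 1735 and 1091 for 161292_f_at. Without replicate 3 of E14, 161292_f_at passed as higher in E14 cells (0.56, adjusted p = 0.0195), while the other 2 did not pass in any alternative. The suffix _f marks probe sets that the array's maker lists as matching several related sequences.

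For Bub1, 162264_s_at gave 19.5, 10.7 and 12.4 in E14 arrays, against 234, 150 and 299 in ESVJ arrays. The E14 values were below the pseudocount of 32 and the probe set met the filter through the feeder-grown lines, so its log2 difference has no fixed size (-3.90 to -1.50 over 13 alternatives) and is not set against that of 104097_at. In Abca1 +/- arrays the same probe set gave 127, 154 and 254, and in Cdk4 +/- arrays 7.3, 112 and 13.6. Replicate 2 of Cdk4 +/- thus read near the feeder-grown lines and the other 2 near E14, whereas 104097_at gave 918 in that replicate, the lowest of its group. The probe set 97095_at read between 7.4 and 56.1 on every ES array. It gave 29.4, 7.4 and 38.0 in Cdk4 +/- arrays, against 48.0, 56.1 and 42.8 in E14 arrays. These values were below the filter, and their difference was not tested.

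**Figure D3:**
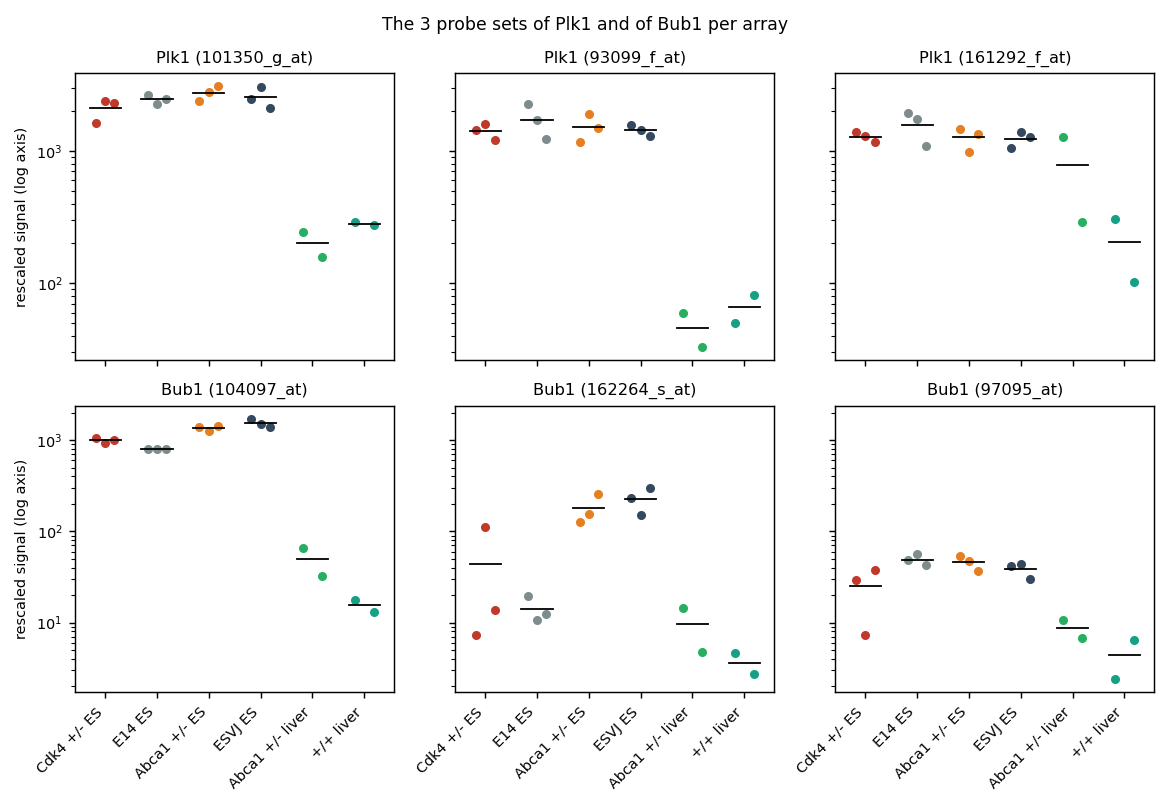
Rescaled signal (log axis) of the 3 probe sets of Plk1 (top) and of Bub1 (bottom) on each array, by group; points are arrays and bars are group means. Replicate 2 of Cdk4 +/- gives 112 with Bub1 162264_s_at beside 7.3 and 13.6, and replicate 1 of the livers labelled Abca1 +/- gives 1277 with Plk1 161292_f_at.

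In livers the members were low, and 5 probe sets of 4 genes (Plk1, Smc4, Ccna2 and Lmnb1) were above the filter and tested. None passed between livers labelled Abca1 +/- and +/+ livers, where 1 of 7160 probe sets passed (0.014%); 1321 (18.4%) had an unadjusted p below 0.05, of which 1 is a member. That member was Plk1 161292_f_at, with 1277 and 289 in livers labelled Abca1 +/-, against 308 and 103 in +/+ livers. The high value stands in 1 liver alone, the one with the low 5′ to 3′ ratios, and the log2 difference of 1.60 (SE 0.64) did not pass (adjusted p = 0.227, limma). In that liver the other Plk1 probe sets gave 246 and 59.1, within the range of the other 3 livers. The summed signal of 10 leukocyte genes was 10720 there and 6386 in the other liver labelled Abca1 +/-, against 4598 and 5904 in +/+ livers, and its part in the Plk1 value was not tested. The BioB control read 1022 and 1446 in livers labelled Abca1 +/-, against 1830 and 3550 in +/+ livers, and its part in the liver values was not tested.

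Ccna2 gave 498 and 178 in livers labelled Abca1 +/-, against 231 and 439 in +/+ livers. The groups overlapped fully, with a log2 difference of -0.08 (95% interval -1.16 to 1.004). Smc4 gave 246 and 235 in livers labelled Abca1 +/-, against 118 and 195 in +/+ livers, and Lmnb1 gave 150 and 74, against 150 and 185. Neither passed (adjusted p = 0.473 and 0.584, limma), and with 2 arrays a group the intervals were wide, at -1.53 to 0.49 for Lmnb1.

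The leading probe set of each of the 9 measured genes read lower in every liver than in every ES array. In ESVJ cells against +/+ livers 5488 of 7841 probe sets passed (70%), 46.2% as higher, and in E14 cells against +/+ livers 5745 passed (73.3%), 46.7% as higher. The filter on low signal was a mean over all 16 arrays, so a member low in liver was tested because of its ES signal. This holds for 4 of the 11 tested member probe sets, those of Top2a, Bub1 (104097_at), Smc2 and Plk1 (93099_f_at), which averaged less than 100 in +/+ livers. Prc1 and Cdk1 averaged 107 and 135 in +/+ livers, yet they were below the filter over the 4 livers, so the same holds for them. Levels of all of these are given without a test, and no count of passed members is read as a result.

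Top2a gave 2547, 2610 and 2592 in ESVJ arrays and 1324, 1451 and 1087 in E14 arrays, against 8.8 and 10.8 in +/+ livers. Smc2 gave 15.1 and 38.5 in +/+ livers, and Bub1 gave 17.9 and 13.0. These liver values lie near or below the pseudocount of 32, so no fold is given for the 3 genes and they have no order among themselves.

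Ccna2, with 231 and 439 in +/+ livers, had a log2 difference of 2.47 (SE 0.29) in ESVJ cells and 2.41 in E14 cells. Lmnb1, with 150 and 185 in +/+ livers, had 2.60 (SE 0.36) in ESVJ cells and 2.02 in E14 cells. The median log2 difference over all probe sets was 0.42 in ESVJ cells and 0.42 in E14 cells. The adjusted p-values of Ccna2 and Lmnb1 were at most 5.15e-06 in ESVJ cells and 8.38e-05 in E14 cells (limma). Cdk1 read 33.9 in 1 +/+ liver and 236 in the other, and 46.9 and 44.2 in livers labelled Abca1 +/-. It was below the filter over all livers, so its level is given without a test. Its log2 difference had no fixed size, at 3.989 to 6.015 in ESVJ cells and 3.377 to 5.402 in E14 cells over 13 alternatives.

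The other genes of mitosis were read from 6 lists with 78 tested genes, members left out. Between Cdk4 +/- and E14 cells, 4 of the 78 passed as higher (5.13%, beside 2.59% of all probe sets) and 1 as lower (1.28%, beside 2.33%), with a median log2 difference of 0.10, beside 0.02 for all genes. These shares lie near those of all probe sets, so the genes that follow are named for their values and not as a shift of the lists. Higher were Sgo1, which protects centromeric cohesion (0.91, SE 0.20), Smc3, a cohesin subunit (0.72, SE 0.15), Ckap5, a microtubule polymerase (0.65, SE 0.14), and Sun2, a protein of the inner nuclear membrane (1.05, SE 0.20). Lower was Tubg1, a gamma-tubulin of the spindle poles (-0.54, SE 0.13). Their adjusted p-values lay between 0.011 and 0.0317 (limma). Of 29 DNA replication genes, 0 passed as higher and 2 as lower (6.9%, beside 2.33% of all probe sets), Fen1 (-0.57, SE 0.15) and Orc1 (-0.43, SE 0.12). Each of these 7 genes lost its call in at least 1 analysis that left out an array. Of 13 genes of the anaphase promoting complex and its partners, none passed in either direction. The same held for the 13 genes of the list of mitotic cyclins, kinases and phosphatases, which also holds Cks1b, Cks2 and Gmnn.

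The list of G2 and mitosis gene regulators, which holds subunits of the complexes that bind the promoter motifs above, had 0 of 13 genes pass between Cdk4 +/- and E14 cells. The smallest p-values were those of Nfya, a subunit of the CCAAT-binding factor (-0.38, adjusted p = 0.16, limma), and Tfdp1, an E2F partner (-0.37, adjusted p = 0.171, limma). Between Abca1 +/- and ESVJ cells, 0 of the 78 mitosis genes passed.

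Between E14 and ESVJ cells, 29 of the 78 mitosis genes passed as lower (37.2%, beside 22.8% of all probe sets) and 7 as higher (8.97%, beside 19.8%), with a median of -0.26, beside -0.07 for all genes. Lower were, among others, Sgo1 (-1.23, SE 0.20), Smc3 (-1.23, SE 0.15), the spindle pole gene Aspm (-1.06, SE 0.16), the proliferation marker Mki67 by 1 of its probe sets (-0.997, SE 0.15), the securin gene Pttg1 (-0.86, SE 0.15), the kinase gene Aurka (-0.76, SE 0.11) and Birc5, of the chromosomal passenger complex (-0.71, SE 0.12). Higher were the nuclear envelope genes Lmna (1.33, SE 0.13) and Emd (0.92, SE 0.15), Top2b, the paralogue of Top2a (0.70, SE 0.21), and Kif20a, a midzone kinesin, by 1 of its probe sets (1.70, SE 0.13), while its other probe set gave -0.13 (SE 0.14). The other tested probe set of Mki67 gave -0.21 (SE 0.25) and did not pass (adjusted p = 0.521, limma). Of 29 DNA replication genes, 13 passed as lower (44.8%) and 0 as higher. Of the 10 pluripotency genes, 10 passed as lower in E14 cells and their summed signal did not overlap between the lines (33920 to 39740 in E14, 56520 to 64200 in ESVJ). Esrrb, 1 of the 10, averaged 51.0 in E14 and 58.0 in Cdk4 +/- cells and met the filter on low signal only through the feeder-grown lines. The part of the shift in pluripotency genes in the members' values was not tested.

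Of the lamin genes, Lmna passed as higher in E14 cells by both of its tested probe sets (1.33 and 0.70), whereas Lmnb1 had -0.58 and did not pass; the difference between the 2 genes was not tested.

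**Figure D4:**
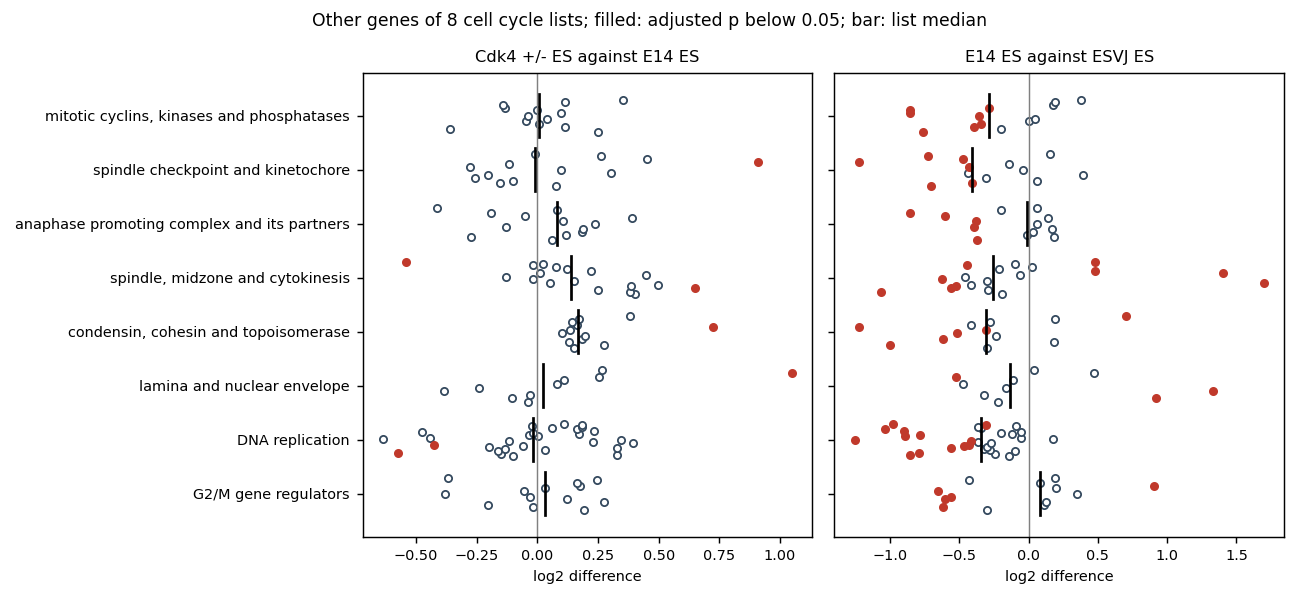
Log2 differences of the genes of 8 cell cycle lists, members left out, in Cdk4 +/- against E14 (left) and E14 against ESVJ (right); each point is a gene, filled points have an adjusted p below 0.05 and the bar is the list's median. Few points are filled on the left (4 of 78 mitosis genes higher and 1 lower), while on the right 29 of the 78 are filled as lower and 7 as higher.

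The genes whose pattern over the 6 group means was most like that of a member were found by the root mean square difference of the centred log2 means, over 7068 candidate probe sets (7066 for Plk1). For Prc1 they were Mtf2, a Polycomb-associated protein gene (0.18), Slc25a36 (0.24) and Bcat1 (0.24), against a median of 1.77 over the candidates. For Smc2 they were Klf4, a pluripotency factor (0.14), Nusap1, a spindle protein gene (0.27), and Fubp1 (0.28), against a median of 2.10. Klf4 averaged 2614 in Cdk4 +/-, 1503 in E14, 2023 in Abca1 +/- and 2256 in ESVJ cells, an order that differs from that of Smc2 in its highest group. Mtf2 differs from Prc1 in the same way, with 2359 in Cdk4 +/- and 2620 in ESVJ cells. Slc25a36 and Bcat1 were highest in Cdk4 +/- cells, as Prc1 was. For Lmnb1 they were Mme (0.27), Sbno1 (0.30) and Ptgs2 (0.30), against a median of 1.10. The nearest to Smc4 was Dlgap5 (0.12), to Ccna2 Cyrib (0.09), to Cdk1 Ect2 (0.21), to Plk1 Tubb5 (0.05), to Bub1 Jarid2 (0.18) and to Top2a Enah (0.14). With 6 points, of which the gap between ES cells and liver is the widest, the measure is a description.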

How the data were processed

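Total RNA of 16 mouse samples was hybridised to U74Av2 arrays, 1 array per sample. Per the labels, the arrays were processed with MAS5.0 at default settings, and the deposited values are its signal, a linear intensity, with no detection calls. Every array was brought to a 2% trimmed mean of 500 and converted to log2 after adding 32. A fit kept probe sets averaging 100 or more across its arrays, without the control probe sets. Group means were compared with limma 3.58.1 (R 4.3.3), with an intensity trend and Benjamini-Hochberg adjustment over all tested probe sets. The 12 ES arrays were fitted together (7349 probe sets), the 4 livers alone (7160) and all 16 arrays for ES cells against liver (7841).

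Genes came from the array annotation in GEO, in which 10855 probe sets name 1 gene, 396 several and 1237 none. The leading probe set of a gene is that with the highest mean signal. The members, the gene lists and the tests were chosen with earlier results of these data known. Named are all members, Cdk4 and Abca1, up to 4 passed genes of smallest p per list and comparison (or 2 where none passed), and the nearest genes by pattern; Bub1 162264_s_at was singled out and Kif20a's, Lmna's and Mki67's further probe sets were added after their values were seen. Alternatives were pseudocounts of 1 and 100, no filter or one of 200, quantile or median scaling, no trend, fits limited to the compared groups or spanning all 16 arrays, and omission of single arrays; leaving out or blocking the ES arrays with a BioB control above 1500 (livers were not set apart by it) was added after the data were seen. Simulated data with known changes were run through 2 of the comparisons, Cdk4 +/- against E14 cells and the livers, and not through the others. The outcome is not reported here. The number of arrays limits the precision.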

Additional observations from a re-analysis of the deposited data

Results flagged for a closer look

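Prc1 and Smc2 stood out because the difference between mutant and control line was unlike in the Cdk4 and the Abca1 pair, by a limma test of the difference of the 2 log2 differences. For Prc1 that difference was 0.85 (adjusted p = 0.0464, limma), with 3 of 3 Cdk4 +/- arrays above every E14 array and overlapping arrays in the Abca1 pair. For Smc2 it was 1.11 (adjusted p = 0.0464, limma), with 3 of 3 Cdk4 +/- arrays above every E14 array and overlapping arrays in the Abca1 pair. Neither call held in most alternatives: Prc1 missed the threshold in 17 of 22 and Smc2 in 16 of 22. Groups of 2 and 3 arrays are too small for the rule on single outlying samples.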

How the results depend on the processing

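No paired analysis was possible because the labels give no replicate numbers. Counts of member probe sets that passed are given beside those over all probe sets. For Cdk4 +/- against E14 cells, 2 members passed, 1 with all 16 arrays in one fit and 1 to 3 when 1 array was left out (1 without replicate 1 or 2 of E14 or replicate 1 of Cdk4 +/-). The 361 probe sets over all genes became 196 with no filter, 227 with no trend, 174 with only the groups compared, 35 with all 16 arrays and 68 to 521 without 1 array, the lowest without replicate 1 of Cdk4 +/-. For Abca1 +/- against ESVJ cells, 0 members passed in every alternative, and the 2 probe sets over all genes became 1 with no filter, with a filter of 200, with only the groups compared, with high BioB as a block and without any 1 array, 0 with all 16 arrays and 4 without the arrays of high BioB. For the difference of both effects, 2 members became 0 with a pseudocount of 1, no filter, median scaling, no trend or all 16 arrays, 1 without the ES arrays of high BioB (neither Prc1 nor Smc2, adjusted p = 0.072 and 0.0808, but Lmnb1, 0.0304, limma), 1 with high BioB as a block (Smc2) and 0 to 2 without 1 array. The 46 probe sets over all genes became 16 with no filter, 72 with quantile normalization, 24 with median scaling, 19 with no trend, 1 with all 16 arrays and 5 to 93 without 1 array. For E14 against ESVJ cells, 4 to 7 members and 2529 to 2857 probe sets passed without 1 array. For livers labelled Abca1 +/- against +/+ livers, 0 members became 3 with all 16 arrays (Bub1 104097_at, Plk1 161292_f_at and Smc2, adjusted p = 0.0129, 0.0233 and 0.0472, limma) and 0 to 1 without 1 array. The 1 probe set over all genes became 3 with no filter, 0 with quantile normalization, median scaling or no trend, 1970 with all 16 arrays and 9 to 1653 without 1 array. For ESVJ and E14 cells against +/+ livers, 4921 to 5317 and 5133 to 5583 probe sets over all genes passed without 1 array. With all 16 arrays the ES spread sets the liver errors and the liver spread the ES errors, and the filter averages over both. Without 1 array fewer samples enter. Other causes were not tested. No called value of a member changed sign; of 732 values past the threshold under neither setting, 28 did. Signals below 32 carry little information on a fold.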
